A study of Mus musculus with 4 samples.

Results

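The heat shock chaperones described here are the 10 genes Hspa1a, Hspa1b, Hspa8, Hsp90aa1, Hsp90ab1, Hsph1, Dnajb1, Hspb1, Hspd1 and Hspe1, chosen by gene name among the 55367 gene names of the count table. All 10 passed the filter on low counts that left 16945 genes for testing. RNA was measured in endothelial cells that were sorted as positive for CD31 and negative for CD45 from tumours grown under the skin of C57BL/6 mice from injected KPC cells, a mouse pancreatic cancer line. Cell extraction followed 48 hours after an injection of an antibody against CD93, a receptor on the endothelial surface, or of a control rat IgG. The groups had 2 libraries each, anti-CD93 replicates 1 and 2 and control IgG replicates 1 and 2. They shared the kind of tumour, the way of digestion with Liberase and the way of sorting. Whether the replicates of a group were different animals is not in the labels, and the p-values therefore cover the spread between these libraries, which may be technical.

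Chaperones bind unfolded or partly folded proteins and help them reach or keep their shape. The HSP70 proteins work in cycles of ATP binding and release, with J-domain proteins that deliver substrates and exchange factors that reset the cycle, while HSP90 acts later on signalling proteins, endothelial nitric oxide synthase and the VEGF receptor KDR among them. Some of these genes, such as Hspa1a, Hspa1b, Dnajb1 and Hspb1, are switched on by the transcription factor HSF1 under heat and other protein-damaging stress, and enzymatic digestion of a tissue is known to raise them, while Hspa8 and Hsp90ab1 are made at high levels in unstressed cells.

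The promoter sequences are shown for the 3 genes with the smallest p of the 10 and for the Hspd1 and Hspe1 pair, which share a promoter region. HSF1 binds heat shock elements, repeats of the letters GAA in alternating orientation. The motif was searched as GAANNTTC or TTCNNGAA, and in longer forms in which NNGAA follows the first or NNTTC follows the second. Both searches find the same places on either strand, and each longer form holds short ones. Capitals mark the bases covered by a match. The sequences are from RefSeq, GRCm38.p6, and end at the base before the gene's start. The last one spans only the 215 bases between the start of Hspe1 (55088148) and 1 of the 2 listed starts of Hspd1 (55087932). The other listed start of Hspd1 (55088243) lies past the start of Hspe1, inside that gene.
Hspa1a (chr17:34972157-34972406, minus strand): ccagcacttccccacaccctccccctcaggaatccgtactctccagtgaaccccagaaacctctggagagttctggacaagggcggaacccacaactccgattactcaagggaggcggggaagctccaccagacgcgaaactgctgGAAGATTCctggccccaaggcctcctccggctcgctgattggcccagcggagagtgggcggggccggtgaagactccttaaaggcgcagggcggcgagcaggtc
Hspa1b (chr17:34959239-34959488, minus strand): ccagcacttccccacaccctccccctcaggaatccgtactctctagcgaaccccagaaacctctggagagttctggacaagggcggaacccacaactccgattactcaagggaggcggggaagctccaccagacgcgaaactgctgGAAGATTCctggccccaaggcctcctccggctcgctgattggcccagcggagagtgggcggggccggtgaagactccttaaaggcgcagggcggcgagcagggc
Hspb1 (chr5:135887669-135887918, plus strand): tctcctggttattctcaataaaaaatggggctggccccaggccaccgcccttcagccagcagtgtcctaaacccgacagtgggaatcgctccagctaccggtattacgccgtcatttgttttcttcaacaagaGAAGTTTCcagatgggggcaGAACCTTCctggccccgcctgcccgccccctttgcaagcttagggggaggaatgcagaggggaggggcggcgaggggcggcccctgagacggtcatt
Hspd1-Hspe1 (chr1:55087933-55088147, plus strand, in the direction of Hspe1): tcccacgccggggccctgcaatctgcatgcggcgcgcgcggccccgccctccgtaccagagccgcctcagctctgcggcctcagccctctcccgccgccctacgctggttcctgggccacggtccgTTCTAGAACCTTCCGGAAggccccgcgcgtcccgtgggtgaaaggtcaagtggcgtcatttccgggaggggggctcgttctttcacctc
Hspa1a and Hspa1b carried the same match 97 bases before the start, and their upstream sequences were 98.8% identical. Counted from 1 at the 5′ end, Hspb1 had separate matches at bases 134 to 141 and 154 to 161, and the Hspd1-Hspe1 region held 1 unbroken run of matches from base 127 to base 144. RefSeq windows of 300 bases, from 250 before a start to 50 after it, were matched for 7 of the 10 genes (all but Hspa8, Hsp90aa1 and Hsp90ab1). These 7 genes had 10 windows. A short form was present for 6 of the 7 genes, in 7 of the 10 windows, and in 15.1% of all 32851 windows. The longer form was present for Hsph1, Hspd1 and Hspe1, in 4 of the 10 windows, and in 0.603% of all windows. The counts are not independent, since Hspa1a and Hspa1b carry the same match and Hspd1 and Hspe1 share a region. A match is a description of the letters, not evidence of binding.

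In each library the 10 genes together took 0.945% and 0.920% of the assigned reads with anti-CD93, and 1.01% and 1.16% with control IgG, in the order of the replicates. Levels per length, compared as TPM (reads per exon base, scaled to a sum of 1000000 in each library), placed Hsp90ab1 at rank 14 of all gene names, with 3183 and 3256 TPM in the anti-CD93 libraries and 3066 and 4464 TPM in the control IgG libraries. Hspa8 followed at 1664 and 1931 TPM with anti-CD93 and 1948 and 1799 TPM with control IgG. Hspa1b was at 1451 and 1270 TPM with anti-CD93 and 1609 and 2323 TPM with control IgG, and its range overlapped that of Hspa8. The order by mean level went on with Hsp90aa1 (794 TPM), Hspa1a (679 TPM), Hspb1 (536 TPM), Hsph1 (364 TPM), Dnajb1 (198 TPM), Hspe1 (138 TPM) and Hspd1 (134 TPM). The ranges over the 4 libraries overlapped between Hsp90aa1 and Hspa1a, Hspa1a and Hspb1, Hspb1 and Hsph1, Dnajb1 and Hspe1, and Hspe1 and Hspd1, so the order within these pairs is not firm. The rest of the order, that of Hsp90ab1 and Hspa8 included, is not firm either. TPM rests on the deposited exon length and on reads that fit 1 gene. For Hspa8 that length is 4301 bases, against 2394 bases in its longest protein-coding transcript, and 56.0% of its 150-base windows occur in other gene names. For Hsp90ab1 the lengths are 2999 and 2520 bases, and 0.0% of the windows are shared. The lengths are 7266 and 3802 bases for Hsph1, and 1474 and 774 bases for Hspe1. For Hsp90aa1, 36.2% of the windows are shared. Ranks are given for the table as deposited.

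None of the 10 genes passed the test between the groups. By edgeR's quasi-likelihood test with Benjamini-Hochberg adjustment over all 16945 genes, 0 genes in all (0.0%) had an adjusted p under 0.05, and the 10 had adjusted p from 0.812 to 0.952. At an unadjusted p under 0.05, 3 of the 10, Hspa1a, Hspa1b and Hspb1, were lower with anti-CD93 and 0 were higher, where 4.49% of all tested genes passed (761), 2.5% lower and 1.99% higher. The same 3 passed at that level with RLE scaling (2.55% of all genes lower), upper quartile scaling (2.65%), total count scaling (2.6%), a minimum count of 50 (2.59%), limma-voom (2.35%) and DESeq2 (1.6%), while Hspb1 did not with no count filter (2.81%) or with the replicate block (2.65%). After adjustment, limma-voom called 0 genes, DESeq2 0.015%, the fit with no count filter 0.144% and the replicate block 0.0826% of all tested, and 0 of the 10 in each. Both anti-CD93 libraries lay below both control IgG libraries for 4 of the 10 (Hspa1a, Hspa1b, Hspb1 and Dnajb1) and above them for 0, against 19.7% and 20.1% of all tested genes (39.8% either way). The median log2 fold change, anti-CD93 over control IgG, was -0.16 over the 10 and -0.0092 over all tested genes. The members were chosen with earlier results of these libraries known, so these counts describe the 10 genes and carry no p of their own. In sorted cells a bulk level cannot tell fewer cells of a type from less RNA per cell.

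The 4 libraries held 9364294 to 17813993 assigned reads. Control IgG replicate 2 had the fewest reads and stood apart from the other libraries: log2 CPM (reads per 1000000 reads of the tested genes, after TMM scaling) correlated across genes at 0.945 to 0.947 with it and at 0.977 to 0.983 without it, and genes are not independent replicates. Its mitochondrial ribosomal RNA share was 6.20%, against 11.8% and 11.1% in the anti-CD93 libraries and 10.97% in the other control. Olfactory and vomeronasal receptor genes, which endothelial cells are not known to use, summed to 344 CPM of all assigned reads in that library and to 47.8 to 49.1 CPM in the other 3. Endothelial markers were present in every library: 12 of 12 were tested, and their CPM summed to 9400 and 9586 with anti-CD93 and to 9748 and 11260 with control IgG. Cd93 itself was at 1716 and 1514 CPM with anti-CD93 and at 1530 and 1759 CPM with control IgG, which as a check of RNA says nothing of the antibody's action on the protein.

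**Figure D1:**
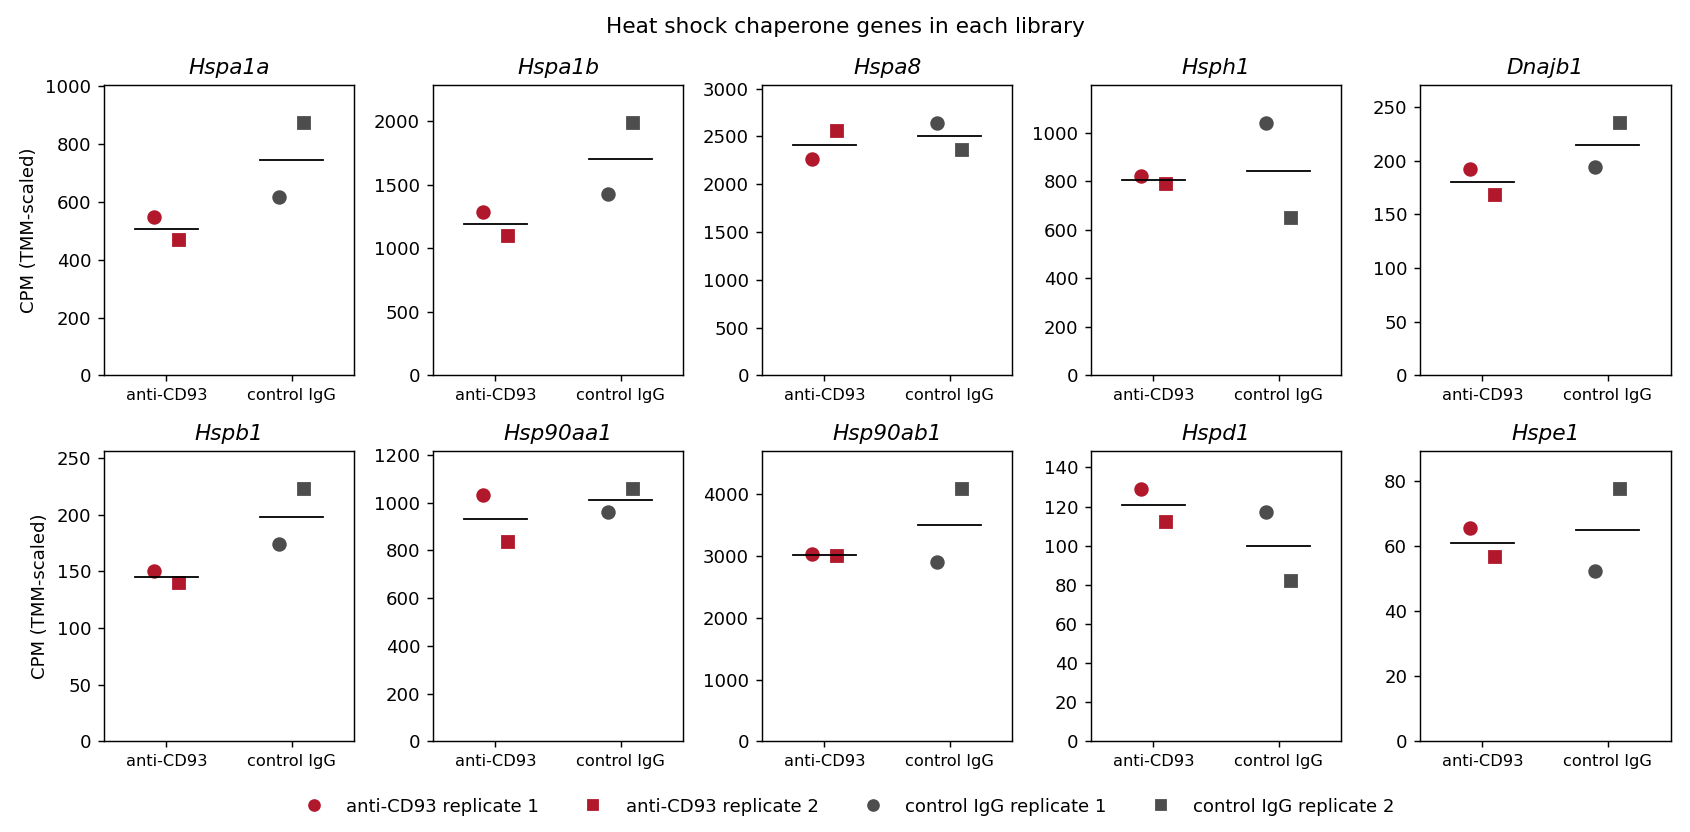
CPM of the 10 heat shock chaperone genes in each library (vertical axes from 0, circles for replicate 1, squares for replicate 2, horizontal bars for the mean of the 2 libraries), anti-CD93 to the left of control IgG. In the panels of Hspa1a, Hspa1b, Dnajb1 and Hspb1 both anti-CD93 libraries lie below both control IgG libraries, and control IgG replicate 2 is the highest of the 4.

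The inducible HSP70 genes Hspa1a and Hspa1b encode the stress-induced cytosolic HSP70 protein. They are single-exon neighbours on chromosome 17 (GRCm38, 34969190 to 34972156 and 34956436 to 34959238, both on the minus strand). Hspa1a had 545 and 468 CPM in the anti-CD93 libraries, against 618 and 872 CPM in the control IgG libraries. The groups did not overlap, and the difference between the 2 controls was larger than the gap between the groups. The log2 fold change was -0.56 (SE 0.21), or 1.47-fold lower with anti-CD93 (adjusted p = 0.812 by edgeR). Hspa1b had 1288 and 1095 CPM with anti-CD93 and 1423 and 1986 CPM with control IgG, again without overlap and with control IgG replicate 2 highest. Its log2 fold change was -0.52 (SE 0.21, adjusted p = 0.812 by edgeR). Within each library the reads of Hspa1b were 2.36 and 2.34 times those of Hspa1a with anti-CD93, and 2.30 and 2.28 times with control IgG, so the pair kept nearly the same proportion in all 4. Reads that fit several places or genes are by default left out of such counts. Of the 150-base windows, 46.0% in the Hspa1a transcript and 40.5% in that of Hspa1b occur exactly in a transcript of another gene name, the partner among them, so both levels are uncertain. In addition, 564 bases of Hspa1a overlap the opposite-strand gene Gm20481, which is listed at 0 reads in all 4 libraries. Counted as 1 gene, a setting chosen after seeing the data, the pair had 1833 and 1563 CPM with anti-CD93 and 2041 and 2859 CPM with control IgG (log2 fold change -0.53, SE 0.21, adjusted p = 0.812 by edgeR).

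The size of both differences depended on which control was kept. With control IgG replicate 2 left out, the log2 fold change was -0.29 for Hspa1a (SE 0.11, adjusted p = 0.538 by edgeR) and -0.26 for Hspa1b (SE 0.11, adjusted p = 0.615 by edgeR), and 0.0881% of all tested genes were called, 0 of the 10 among them. 4 of the 10 (Hspa1a, Hspa1b, Hspb1 and Hsph1) were then lower at an unadjusted p under 0.05, against 3.38% of all genes. With control IgG replicate 1 left out instead, the values were -0.75 (adjusted p = 0.00162 by edgeR) and -0.70 (adjusted p = 0.00215 by edgeR). In that fit 7 of the 10 chaperones were called, and 4623 genes in all, 24.7% of those tested (11.3% lower, 13.4% higher); 38.2% had an unadjusted p under 0.05. Leaving out anti-CD93 replicate 1 or 2 gave 0.0% and 0.00541% called. The lone library of a group is there assumed to vary like those of the other group. The direction was the same for both genes in each of the 4 fits with 1 library left out. That outcome was nearly fixed in advance, since the groups did not overlap for either gene. Over all 2678 tested genes with a single exon, as in this pair, the median log2 fold change was 0.11 and 41.6% were lower. Over all tested genes the median was -0.0092 and 50.9% were lower. Any part of exon number in the values of this pair was not tested.

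Hspa8 encodes the constitutive HSC70, the cytosolic HSP70 that is also needed for clathrin uncoating (chromosome 9, 40800984 to 40810087). It had 2267 and 2556 CPM with anti-CD93 and 2643 and 2360 CPM with control IgG, so the groups overlapped. Its log2 fold change of -0.053 was smaller than its SE of 0.17 (adjusted p = 0.949 by edgeR). Without anti-CD93 replicate 1 the value was 0.049, and without control IgG replicate 1 it was 0.067. The ratio of the summed Hspa1a and Hspa1b reads to the Hspa8 reads, which no library scaling affects, was 0.809 and 0.612 with anti-CD93 and 0.772 and 1.21 with control IgG. This ratio overlapped between the groups, since anti-CD93 replicate 1 lay above control IgG replicate 1. Of the 150-base windows of Hspa8, 56.0% occur in other gene names, most of them predicted genes.

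**Figure D2:**
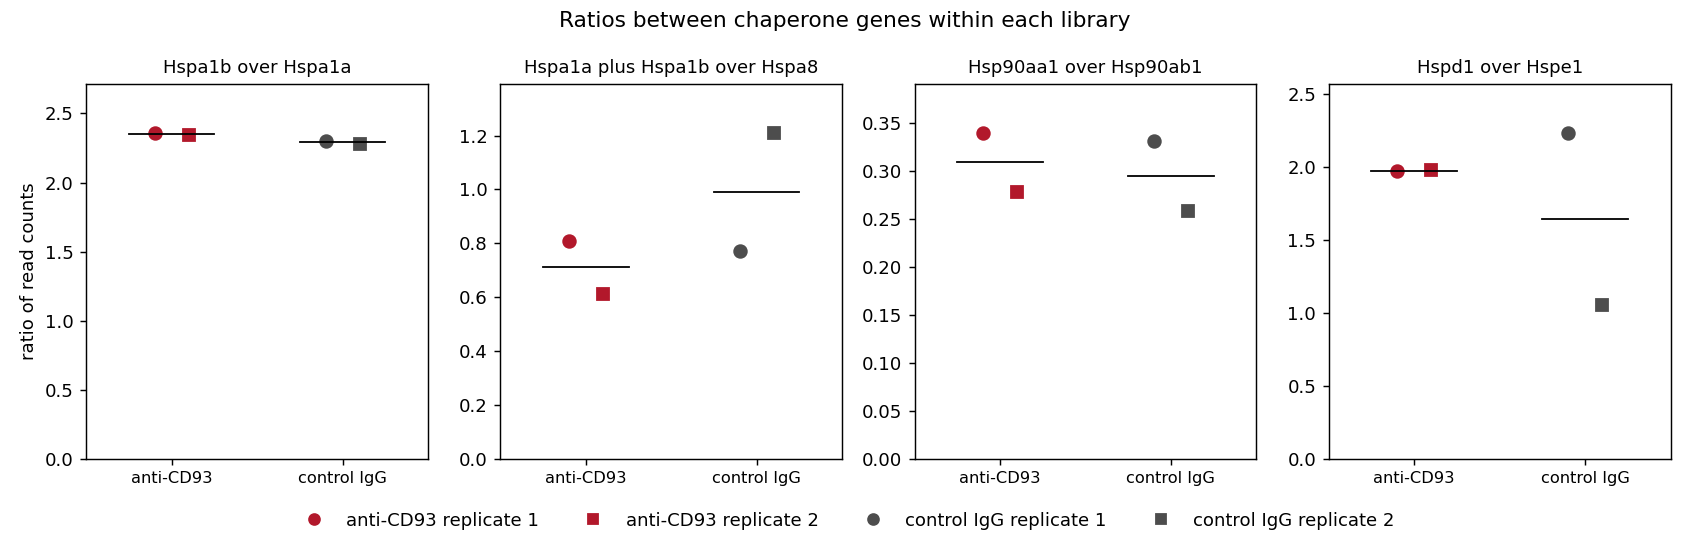
Ratios of read counts between pairs of chaperone genes within each library (vertical axes from 0, circles for replicate 1, squares for replicate 2, bars for the mean of the 2 libraries), anti-CD93 left of control IgG. Hspa1b over Hspa1a stays between 2.28 and 2.36, the inducible to constitutive HSP70 ratio is highest in control IgG replicate 2, and Hspd1 over Hspe1 is lowest there.

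The partners of HSP70 among the 10 differed from each other. Dnajb1 encodes a J-domain protein of the HSP40 family that stimulates HSP70's ATPase (chromosome 8, 83608193 to 83612653). It had 193 and 168 CPM with anti-CD93 and 194 and 235 CPM with control IgG. The groups were separated only by the narrow gap between anti-CD93 replicate 1 and control IgG replicate 1. The log2 fold change was -0.25 (SE 0.18, adjusted p = 0.812 by edgeR), and it was -0.11 without control IgG replicate 2 and -0.35 without control IgG replicate 1 (adjusted p = 0.0421 in edgeR). Hsph1 encodes an HSP110 protein that acts as a nucleotide exchange factor for HSP70 (chromosome 5, 149614287 to 149636376). It had 822 and 787 CPM with anti-CD93 and 1040 and 646 CPM with control IgG. Here the 2 controls enclosed both anti-CD93 libraries, and control IgG replicate 2 was the lowest of the 4 where it was the highest for Hspa1a. The log2 fold change of -0.068 (SE 0.24, adjusted p = 0.952 by edgeR) became -0.37 without control IgG replicate 2 (adjusted p = 0.218 by edgeR) and 0.35 without control IgG replicate 1 (adjusted p = 0.0264 by edgeR).

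Hspb1 encodes a small heat shock protein that holds unfolded proteins without ATP and regulates actin filaments (chromosome 5, 135887919 to 135889563). It had 149.8 and 140.0 CPM with anti-CD93 and 174 and 223 CPM with control IgG, with no overlap. The log2 fold change was -0.45 (SE 0.19, adjusted p = 0.812 by edgeR). It was -0.26 without control IgG replicate 2 (adjusted p = 0.528 by edgeR) and -0.58 without control IgG replicate 1 (adjusted p = 0.00316 by edgeR). With Hspa1a and Hspa1b it made up the 3 genes at an unadjusted p under 0.05. Of its 150-base windows, 36.6% occur in 2 other gene names.

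The cytosolic HSP90 genes overlapped between the groups. Hsp90aa1 encodes the stress-inducible HSP90 alpha (chromosome 12, 110690605 to 110702728) and had 1030 and 836 CPM with anti-CD93 and 961 and 1058 CPM with control IgG. Its log2 fold change was -0.11 (SE 0.18, adjusted p = 0.892 by edgeR), with a value of 0.044 without anti-CD93 replicate 2. Hsp90ab1 encodes the constitutive HSP90 beta (chromosome 17, 45567775 to 45573271) and had 3024 and 3006 CPM with anti-CD93 and 2900 and 4085 CPM with control IgG. The anti-CD93 libraries were nearly level, while control IgG replicate 2 lay far above the other 3. The log2 fold change was -0.21 (SE 0.21, adjusted p = 0.833 by edgeR). Leaving out control IgG replicate 2 gave 0.054, and leaving out control IgG replicate 1 gave -0.40 (adjusted p = 0.0116 by edgeR). The ratio of Hsp90aa1 to Hsp90ab1 reads was 0.340 and 0.278 with anti-CD93 and 0.331 and 0.259 with control IgG.

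Hspd1 and Hspe1 encode the mitochondrial chaperonin HSP60 and its lid HSP10, and lie head to head on chromosome 1 (55077835 to 55088243 and 55088132 to 55091307). Hspd1 had 129 and 112 CPM with anti-CD93 and 117 and 82.0 CPM with control IgG, the only gene of the 10 with a positive log2 fold change (0.28, SE 0.22, adjusted p = 0.814 by edgeR). Hspe1 had 65.4 and 56.7 CPM with anti-CD93 and 52.4 and 77.6 CPM with control IgG (log2 fold change -0.088, SE 0.23, adjusted p = 0.938 by edgeR). In both genes the groups overlapped, and control IgG replicate 2 was lowest for Hspd1 and highest for Hspe1. Reads of Hspd1 were 1.97 and 1.98 times those of Hspe1 in the anti-CD93 libraries and 2.24 and 1.06 times in the control IgG libraries. Without control IgG replicate 2 the log2 fold changes were 0.041 for Hspd1 and 0.22 for Hspe1. Without control IgG replicate 1 the value of Hspd1 was 0.59 (adjusted p = 0.00684 by edgeR). The annotated exons overlap by 112 bases on opposite strands, and counting ignored strand.

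**Figure D3:**
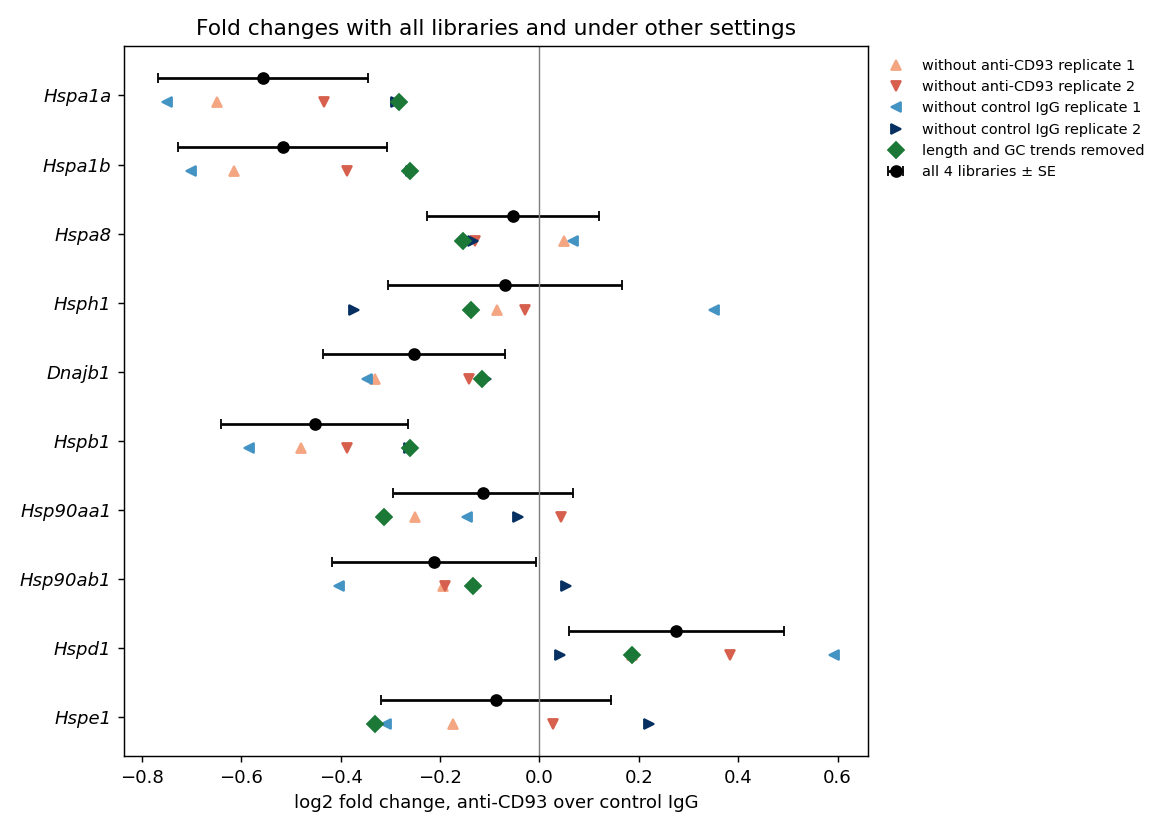
Log2 fold change, anti-CD93 over control IgG, of each chaperone gene with all 4 libraries (black, bars for SE) and with 1 library left out or with length and GC trends removed (coloured markers). Hspa1a, Hspa1b, Hspb1 and Dnajb1 stay below 0 under every setting drawn, while Hspa8, Hsph1, Hsp90aa1, Hsp90ab1 and Hspe1 lie on both sides of 0. For Hspa1a, Hspa1b, Hspb1 and Dnajb1 the groups did not overlap, so the sign with 1 library left out was nearly fixed in advance.

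The 2 control libraries differed from each other in a way that varied between the 10 genes. On the log2 CPM scale, control IgG replicate 2 minus replicate 1 ran from -0.69 for Hsph1 and -0.52 for Hspd1 to 0.50 for Hspa1a and 0.57 for Hspe1. Between the 2 anti-CD93 libraries the size of the difference was at most 0.30, for Hsp90aa1. The 3 genes at an unadjusted p under 0.05 had the highest GC content of the 10: 61.7% for Hspb1, 58.9% for Hspa1a and 58.1% for Hspa1b. The other 7 ranged from 43.7% (Hsp90aa1) to 52.7% (Dnajb1). Over all genes, the trend of control IgG replicate 2 with length and GC put Hspa1a 0.37, Hspa1b 0.35 and Hspb1 0.28 above the mean of the 4 libraries on the log2 scale. The trend values of Hspe1 and Hsp90aa1 were -0.27 and -0.24, although both were higher in control IgG replicate 2 than in replicate 1 (by 0.57 and 0.14). With each library's trend removed, a setting chosen after seeing the data, the log2 fold change was -0.28 for Hspa1a (SE 0.12), -0.26 for Hspa1b (SE 0.12) and -0.26 for Hspb1 (SE 0.12), each with an adjusted p of 0.836 by edgeR. Under this setting 0 of the 10 genes had an unadjusted p under 0.05, against 3.11% of all genes as lower. Hspa1a, Hspa1b and Hspb1 missed it narrowly (unadjusted p 0.052, 0.067 and 0.054 by edgeR). Values moved away from 0 for Hspe1 (-0.33), Hsp90aa1 (-0.31), Hspa8 (-0.15) and Hsph1 (-0.14). They moved towards 0 for Hsp90ab1 (-0.13), Dnajb1 (-0.12) and Hspd1 (0.19). The median of the 10 was -0.21, against -0.16 with the trends kept. Receptor genes of olfactory and vomeronasal neurons were at 0.0598 CPM per kilobase of exon in control IgG replicate 2, where Hspa1a was at 293 CPM per kilobase. Whether reads of this kind had a part in the chaperone values was not tested.

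**Figure D4:**
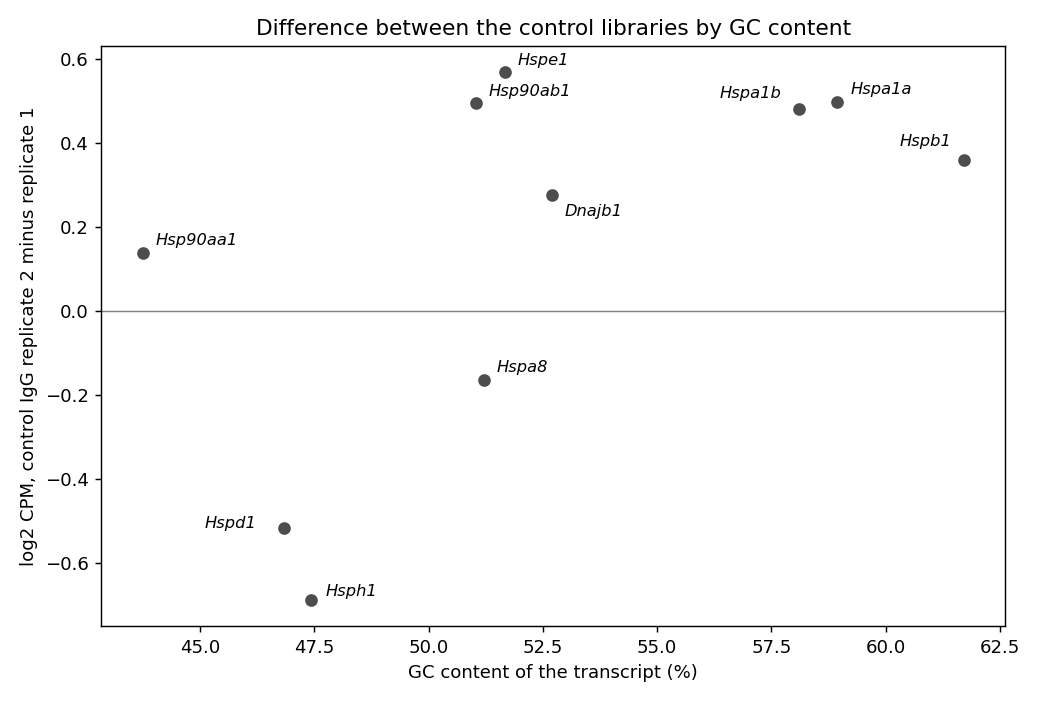
Log2 CPM of control IgG replicate 2 minus control IgG replicate 1 (vertical axis) against the GC content in percent of the longest protein-coding transcript (horizontal axis), 1 point for each of the 10 genes. The 3 genes richest in GC, Hspb1, Hspa1a and Hspa1b, are higher in replicate 2. So are Hspe1, Hsp90ab1, Dnajb1 and Hsp90aa1, the last with the lowest GC content, while Hsph1, Hspd1 and Hspa8 are lower.

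The wider chaperone network was read from 10 lists by role, and 0 of their 113 tested genes passed the adjusted test. The median log2 fold change of these genes was -0.0052, with 54 higher and 59 lower. The groups did not overlap for 28 as higher and 25 as lower, against 20.1% and 19.7% of all tested genes. At an unadjusted p under 0.05, 1 of the 113 was higher (Hspa4l) and 3 were lower (Cryab and Ubb among them), against 1.99% and 2.5% of all tested genes. Hsf1, the gene of the heat shock transcription factor, had 31.8 and 37.9 CPM with anti-CD93 and 32.2 and 55.0 CPM with control IgG, and the groups overlapped. Of the 7 tested HSF factors and stress regulators, 2 were higher and 5 lower (median -0.21). Atf3, a stress-induced transcription factor with the smallest p of that list, had 533 and 649 CPM with anti-CD93 and 762 and 759 CPM with control IgG (log2 fold change -0.36, SE 0.18, adjusted p = 0.812 by edgeR).

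Among the other HSP70 and HSP110 genes, 5 of 7 were higher (median 0.10). Hspa4l, an HSP110 relative of Hsph1, had 65.5 and 76.4 CPM with anti-CD93 and 57.4 and 35.6 CPM with control IgG (log2 fold change 0.61, SE 0.25, adjusted p = 0.812 by edgeR). The groups did not overlap, and as with Hsph1 the lowest library was control IgG replicate 2. Hspa4 had 230 and 219 CPM with anti-CD93 and 231 and 180 CPM with control IgG, and Hspa12b, an HSP70 relative found in endothelium, had 95.4 and 99.6 CPM with anti-CD93 and 105 and 132 CPM with control IgG. J-domain genes divided into 9 higher and 7 lower of 16 (median 0.053), with Dnaja1 at 332 and 337 CPM with anti-CD93 and 319 and 267 CPM with control IgG, and Dnajc9, which has the smallest p of its list, at 8.53 and 9.52 CPM with anti-CD93 against 11.1 and 14.6 CPM with control IgG.

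Exchange and BAG factors were lower in 6 of 9 (median -0.35). Bag3, an HSF1 target that links HSP70 to autophagy, had 183 and 189 CPM with anti-CD93 and 195 and 281 CPM with control IgG. Its log2 fold change was -0.35 (SE 0.21, adjusted p = 0.812 by edgeR) and -0.070 without control IgG replicate 2. Bag4 had the smallest p of that list, with 8.70 and 6.18 CPM with anti-CD93 and 5.14 and 3.53 CPM with control IgG. HSP90 co-chaperones were higher in 9 of 14 (median 0.12). The kinase-loading factor gene Cdc37 had 164 and 166 CPM with anti-CD93 and 185 and 266 CPM with control IgG. Stip1, which couples HSP70 to HSP90, had 92.4 and 99.2 CPM with anti-CD93 and 92.5 and 90.4 CPM with control IgG, and Ahsa1, which stimulates HSP90's ATPase, had 36.7 and 41.3 CPM with anti-CD93 and 40.7 and 43.2 CPM with control IgG. Neither differed by more than its SE.

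All 3 tested small heat shock genes beside Hspb1 were lower (median -0.36), and Hspb3 had no read in any library. Cryab, which encodes alpha B-crystallin, had 2.66 and 1.82 CPM with anti-CD93 and 3.43 and 6.32 CPM with control IgG (log2 fold change -1.10, SE 0.48, adjusted p = 0.812 by edgeR), a low level. Hspb8 had 57.8 and 64.2 CPM with anti-CD93 and 64.8 and 65.2 CPM with control IgG. In the TRiC and prefoldin list 6 were higher and 8 lower of 14 (median -0.027), with the chaperonin subunit gene Tcp1 at 199 and 193 CPM with anti-CD93 and 181 and 241 CPM with control IgG, and the prefoldin gene Pfdn4 at 12.3 and 9.52 CPM with anti-CD93 against 7.50 and 7.39 CPM with control IgG. Mitochondrial chaperones and proteases had 6 higher and 8 lower of 14 (median -0.11). Hspa9, the mitochondrial HSP70 that works with HSP60, had 171 and 178 CPM with anti-CD93 and 166 and 175 CPM with control IgG, Trap1 had 47.2 and 48.5 CPM with anti-CD93 against 46.2 and 55.6 CPM with control IgG, and the protease gene Htra2 had 7.74 and 7.05 CPM with anti-CD93 against 10.3 and 12.7 CPM with control IgG.

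The chaperones of the endoplasmic reticulum were higher in 11 of 18 (median 0.12), and for 10 of the 18 both anti-CD93 libraries lay above both controls, against 20.1% of all tested genes. For 2 of the 18 both lay below, against 19.7%. Hspa5, the HSP70 of that compartment, had 1141 and 1248 CPM with anti-CD93 and 1091 and 825 CPM with control IgG (log2 fold change 0.32, SE 0.19, adjusted p = 0.812 by edgeR). Hsp90b1, its HSP90, had 587 and 538 CPM with anti-CD93 and 494 and 419 CPM with control IgG (log2 fold change 0.30, SE 0.17, adjusted p = 0.812 by edgeR). Dnajb9 had 33.7 and 32.8 CPM with anti-CD93 and 27.6 and 17.2 CPM with control IgG. For these 3 genes control IgG replicate 2 was the lowest library, the reverse of Hspa1a. Without control IgG replicate 2 their log2 fold changes were all still above 0, the smallest being 0.13 for Hspa5. Since the groups did not overlap for these 3 genes, that sign was nearly fixed in advance.

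Ubiquitin and proteasome stress genes were lower in 8 of 11 (median -0.11). Ubb, a polyubiquitin gene induced by heat shock, had 588 and 568 CPM with anti-CD93 and 640 and 1229 CPM with control IgG (log2 fold change -0.69, SE 0.29, adjusted p = 0.812 by edgeR), and -0.15 without control IgG replicate 2. Hmox1, a heme oxygenase gene of the oxidative stress response, had 38.2 and 26.3 CPM with anti-CD93 and 34.7 and 50.4 CPM with control IgG.

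**Figure D5:**
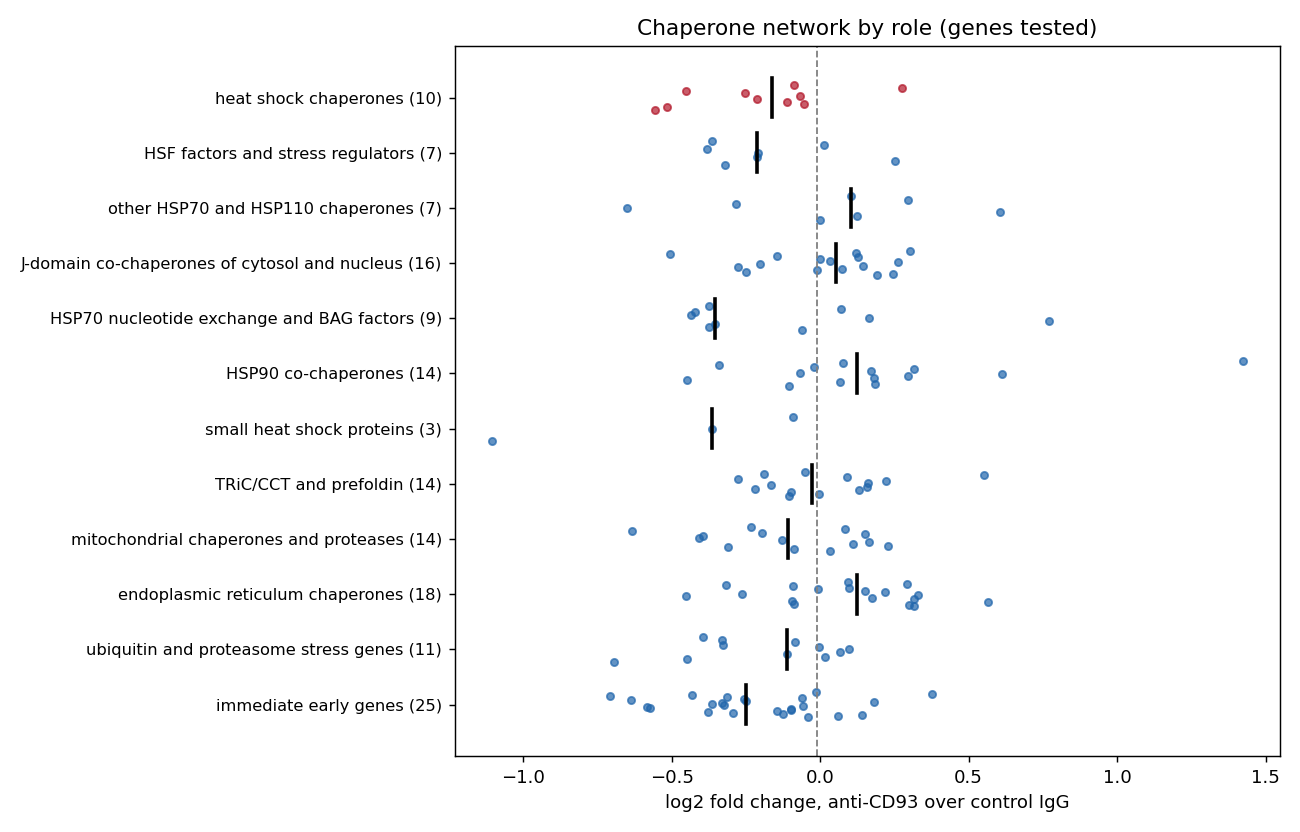
Log2 fold change, anti-CD93 over control IgG, of each tested gene (points) in the heat shock chaperones (red) and in the lists by role and the immediate early genes (blue), with the median of each list as a black bar and the median of all tested genes as a dashed line. The lowest median is that of the small heat shock proteins (-0.36, 3 genes). The medians of the HSF and stress regulator, exchange factor, TRiC and prefoldin, mitochondrial, ubiquitin and immediate early lists are also below 0. The endoplasmic reticulum list and the HSP90 co-chaperones each have a median of 0.12. The medians of the other HSP70 and J-domain lists are above 0 too.

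Lower levels with anti-CD93 were also seen in other gene sets, none past the test. Immediate early genes, which tissue digestion also raises, were lower in 21 of 25 (median -0.25). The groups did not overlap for 14 as lower and 1 as higher, against 19.7% and 20.1% of all tested genes. The CPM of the immediate early genes summed to 8403 and 9635 with anti-CD93 and to 10269 and 10359 with control IgG. Of these, Klf2, a flow-induced endothelial transcription factor, had the smallest p, with 129 and 188 CPM with anti-CD93 and 269 and 248 CPM with control IgG (log2 fold change -0.71, SE 0.22, adjusted p = 0.812 by edgeR). Unlike Hspa1a, it was not highest in control IgG replicate 2. Endothelial markers were lower in 10 of 12 (median -0.18), 7 of them without overlap, against 19.7% of all tested genes as lower without overlap. For each list of markers of other cells the summed level overlapped between the groups. Tumour epithelial genes (7 of 7 tested) summed to 2380 and 1992 CPM with anti-CD93 and 1703 and 2467 CPM with control IgG, and fibroblast genes (7 of 7) to 1762 and 2197 CPM with anti-CD93 and 2105 and 2840 CPM with control IgG. Pericyte and smooth muscle genes (7 of 7) summed to 414 and 306 CPM with anti-CD93 and 347 and 329 CPM with control IgG, leukocyte genes (6 of 10) to 30.7 and 25.0 CPM with anti-CD93 against 16.5 and 31.9 CPM with control IgG, and erythroid and platelet genes (7 of 8) to 46.5 and 27.6 CPM with anti-CD93 against 13.5 and 35.8 CPM with control IgG. Some markers, picked out here after their values were seen, separated the groups with an unadjusted p smaller than that of any of the 10 chaperones. Epcam had 34.1 and 41.1 CPM with anti-CD93 and 21.7 and 23.4 CPM with control IgG (log2 fold change 0.74, SE 0.21, adjusted p = 0.812 by edgeR). Cdh1, the gene of the epithelial adhesion protein E-cadherin, had 351 and 290 CPM with anti-CD93 and 216 and 210 CPM with control IgG (log2 fold change 0.59, SE 0.18, adjusted p = 0.812 by edgeR). Of the 7 tumour epithelial genes 5 were higher and 2 lower (median 0.054). Their groups did not overlap for 2 as higher and 0 as lower, against 20.1% and 19.7% of all tested genes. The globin gene Hba-a2 had 7.63 and 3.85 CPM with anti-CD93 and 2.04 and 1.93 CPM with control IgG, and Hbb-bt had 2.94 and 2.11 CPM with anti-CD93 and 0.0816 and 0.107 CPM with control IgG. Of the 7 tested erythroid and platelet genes 6 were higher and 1 lower, with no overlap for 2 as higher and 0 as lower. Cldn5, a tight junction gene of endothelium, was lower, with 96.8 and 114 CPM with anti-CD93 and 156 and 158 CPM with control IgG. No marker was at 0 in all 4 libraries. The part of these sets in the chaperone values was not tested.

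By profile over the 4 libraries, the genes most like the mean of the 10 chaperones were Myl12a, Mcm6 and Usp4, among 3742 genes with a mean of at least 50 CPM. The root mean square difference of their centred log2 CPM values from that mean was 0.0086, 0.018 and 0.019. Myl12a had 99.5 and 89.4 CPM with anti-CD93 and 102 and 113 CPM with control IgG. With 4 libraries many genes share a profile, so this is a description only.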

How the data were processed

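RNA of sorted tumour endothelial cells was measured in 4 libraries, 2 per group, made with a stranded kit for small amounts of total RNA and read from both ends over 150 bases, per the labels' protocols. Reads were counted by the authors per gene name with featureCounts 2.0.1 on GENCODE vM25 of GRCm38, per the file headers. The recorded command has no paired, strand or multi-mapping option, so mates were counted singly, and reads that fit several places or genes are by default left out. The deposited table holds raw read counts; another deposited table, called normalized, was identical (0 of 221468 cells differed). The submitters' processing notes name STAR 2.7.5b and DESeq2 1.28.1.

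After filterByExpr (minimum count 10) and TMM scaling, the groups were tested by edgeR 4.0.16 (robust quasi-likelihood fit, R 4.3.3), with Benjamini-Hochberg adjusted p under 0.05 as the threshold. The SE is that of the log2 fold change. Libraries held 9364294 to 17813993 assigned reads. With 2 libraries per group, this limits the precision. The fits were tested on simulated data. The replicate numbers are not said to pair the samples. Alternatives were other scalings, other filters, DESeq2 1.42.0, limma-voom (limma 3.58.1), a replicate block and each library left out; removal of length and GC trends (98.0% of tested genes had both values, GC from GENCODE vM21 transcripts) and the pair Hspa1a and Hspa1b as 1 gene were added later. The members and lists were chosen with earlier results of these data known. Named were the 10 members, 14 network genes by role, the gene with the smallest p of each list (mean of at least 5 CPM), and 3 genes by profile. All 119 network names were found; of them 113 were tested, and 1 is not reported here by name.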

Additional observations from a re-analysis of the deposited data

How the results depend on the processing

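Under the other scalings, the stricter count filter and limma-voom, the count of called genes stayed at 0, the 3 chaperone genes at an unadjusted p under 0.05 were the same ones, and the 10 log2 fold changes kept their signs, as they also did with DESeq2, no count filter, the replicate block and the trends removed. With no count filter 48 genes were called, by DESeq2 5 and with the replicate block 14. None of these was one of the 10 chaperones. Same-numbered libraries did not deviate together (correlation over genes -0.016). With 2 libraries per group, and control IgG replicate 2 apart from the others, this cannot show whether they were paired. The main fit used no pairing. With length and GC trends removed, 0 of the 10 chaperones had an unadjusted p under 0.05, and the signs of Dnaja1 (-0.091), Hspa9 (-0.078) and Trap1 (0.0066) turned. The median of the 10 was then -0.21, against -0.16 in the main fit.

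With 1 library left out, the called genes numbered 0 to 4623, the called network genes 0 to 44, the chaperones at an unadjusted p under 0.05 0 to 8, and those not overlapping between the groups 5 to 9, where a group of 1 library makes separation easier. No share over all genes was computed for this separation, so the 5 to 9 cannot be read as a result about the 10. The median of the 10 ran from -0.33 to -0.12. Both the 9 and the median of -0.33 came without control IgG replicate 1. In that fit 3 of the 10 log2 fold changes were above 0 and 7 below. The log2 fold change ran from -0.13 to 0.067 for Hspa8, from -0.25 to 0.044 for Hsp90aa1, from -0.40 to 0.054 for Hsp90ab1, from -0.37 to 0.35 for Hsph1 and from -0.31 to 0.22 for Hspe1. It ran from -0.62 to 0.11 for Hsf1, from -0.044 to 0.35 for Hspa4, from -0.18 to 0.049 for Trap1, from -0.26 to 0.12 for Tcp1 and from -0.16 to 0.0026 for Hspb8. The cause was not tested. With 2 libraries per group, differences of the size seen here could not be told from the spread between libraries.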
